A study of Mus musculus with 2 samples.

Results

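The first 6 Mb covered on mouse chromosome 14 were examined for 5-hydroxymethylcytosine (5hmC). This block was defined by position alone, as every peak on chromosome 14 whose midpoint lay between 3000000 and 9000000 on mouse build mm9. It held 485 of the 121661 enriched regions (peaks) of the series. Of these, 167 were among the 57827 peaks of the library from mouse embryonic stem (ES) cells kept with ascorbic acid (AA, vitamin C; 100 µM, 24 h). The other 318 were among the 63834 peaks of the library whose label names no incubation and which stands for the cells without AA. Both libraries came from ES cells of strain 129SvEv, and in both the 5hmC was tagged with biotin, pulled down from sheared genomic DNA and sequenced. There was 1 library a group, so no replicate error exists, no test between the groups was made, and the 95% exact intervals given here cover counting error or the spread over peaks only. The block was proposed because windows in it had shown fewer AA peaks, so its peak numbers and shared percentages are given as a description.

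The headers of both lists name the other sample: the run name in the AA list is that of the sample without AA, and the reverse. The record was kept, and the lists are called AA-labelled and no-AA-labelled. If the headers are right, each direction given here turns round. The AA-labelled library held 11907082 tags (aligned reads) after duplicate removal and the no-AA-labelled library 18398162, or 1.55 times as many. The fragment length set by the peak caller also differed, at 229 bp in the AA-labelled and 165 bp in the no-AA-labelled library. Depth, fragment length and label cannot be told apart.

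5hmC is made from 5-methylcytosine by the Tet dioxygenases, which need iron and 2-oxoglutarate, and ascorbic acid is known to support enzymes of this kind. Segmental duplications are long stretches of DNA that a genome carries in several nearly identical copies, side by side or inverted. The proximal end of mouse chromosome 14 is known for such copies, among them the takusan genes, a rodent family related to Dlg5 that affects synaptic activity. A read that falls in such a copy can align equally well to more than one place. How such reads were treated here is not given in the sources used here, and its part in the values below was not tested.

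No genome of build mm9 was used, so the peaks carry neither sequence nor gene names. How alike the copies of one gene group are can be shown with promoters from RefSeq on another build, GRCm38.p6 (250 bases before to 50 after the start). The table held promoters of 1092 chromosome 14 genes. Of the windows of 101 bases, the length of a tag, in the chromosome 14 promoters, 8.92% occurred at another position in the table as well, while among all promoters listed it was 2.84%. The largest group of chromosome 14 promoters with at least 270 of 300 letters identical held 14 genes, which lay between place 22 and place 102 in the order of the 1092 genes. Any pair of these 14 had 284 to 300 letters in common. The promoter with the most letters in common with that group, its nearest and its least alike partner are shown 5′ to 3′, with capitals at the letters that differ from Gm10338. Gm8279 lies on the plus strand and the other two on the minus strand.
Gm10338: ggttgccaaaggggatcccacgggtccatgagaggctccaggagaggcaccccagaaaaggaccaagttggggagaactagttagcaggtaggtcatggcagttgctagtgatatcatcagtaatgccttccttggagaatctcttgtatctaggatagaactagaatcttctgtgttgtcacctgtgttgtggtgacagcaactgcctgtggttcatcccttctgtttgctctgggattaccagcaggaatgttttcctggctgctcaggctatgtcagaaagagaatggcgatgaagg
Gm8279: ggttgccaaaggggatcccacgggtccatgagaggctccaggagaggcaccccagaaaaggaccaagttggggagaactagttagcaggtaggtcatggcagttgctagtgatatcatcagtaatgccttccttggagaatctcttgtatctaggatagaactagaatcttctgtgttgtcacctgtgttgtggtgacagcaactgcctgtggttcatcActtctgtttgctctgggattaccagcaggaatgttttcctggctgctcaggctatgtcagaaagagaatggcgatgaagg
Gm21560: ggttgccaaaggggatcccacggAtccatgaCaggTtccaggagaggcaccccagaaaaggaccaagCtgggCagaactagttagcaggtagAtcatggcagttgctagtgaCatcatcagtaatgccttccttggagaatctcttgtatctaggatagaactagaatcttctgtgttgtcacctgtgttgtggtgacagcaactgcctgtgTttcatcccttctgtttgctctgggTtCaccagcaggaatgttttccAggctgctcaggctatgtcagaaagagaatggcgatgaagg
Gm8279 differed from Gm10338 at 1 letter and Gm21560 at 11. Away from that letter, the sequences of Gm8279 and Gm10338 were identical. Whether any peak lies on these promoters was not analysed here, because the builds differ.

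The block was dense in peaks of the no-AA-labelled list. The AA-labelled list had 27.8 peaks per Mb there (95% Poisson interval 23.8 to 32.4), against 21.1 per Mb on chromosome 14 after it, which is 1.32 times as many. The no-AA-labelled list had 53 peaks per Mb in the block (47.3 to 59.2), against 23.7 after it, which is 2.24 times as many. AA-labelled over no-AA-labelled peak number was 0.525 in the block (167 and 318, interval 0.433 to 0.635), against 0.893 after it (2453 and 2748, 0.845 to 0.943). Both lists were thus denser in the block than after it, the no-AA-labelled one by more.

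Most AA-labelled peaks of the block had a no-AA-labelled counterpart. Overlap by at least 1 bp was found for 131 of 167 AA-labelled peaks (78.4%, Clopper-Pearson 71.4% to 84.4%), against 48.2% after the block. It was found for 135 of 318 no-AA-labelled peaks (42.5%, 37.0% to 48.1%), against 43.7% after the block. The peaks called in 1 list alone were 36 AA-labelled ones, or 21.6% where the whole list has 52.5%, and 183 no-AA-labelled ones, or 57.5% where the whole list has 56.4%. The AA-labelled share without a counterpart was thus well under its background, and the no-AA-labelled share was close to it. Among 418 other stretches of 6 Mb in the genome, 6 had a higher shared percentage in the AA-labelled list. The gap between the shared percentages, AA-labelled minus no-AA-labelled, was 36.0 points in the block, against at most 25.9 elsewhere. The overlapping peaks were nearly equal in number, 131 and 135, so this gap largely restates the 167 and 318 peaks. The block was proposed for its fewer AA peaks, so its ranks in shared percentage and in this gap are a description only.

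Every window of 1 Mb in the block had fewer AA-labelled peaks. From 3 to 4 Mb there were 27 peaks in the AA-labelled and 49 in the no-AA-labelled list, and from 4 to 5 Mb 28 and 59. The third held 24 and 49, and the fourth, from 6 Mb, 27 and 51. The fifth held 30 and 59, and the last, from 8 to 9 Mb, 31 and 51. The AA-labelled counts were nearly level along the block, and their ratio to the no-AA-labelled counts ran from 0.475 to 0.608.

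The last 0.5 Mb of the block differed from the rest of it in how many AA-labelled peaks were shared. From 8.5 to 9 Mb there were 16 AA-labelled peaks against 19 in the no-AA-labelled list, of which 4 and 4 overlapped a peak of the other list. In the other 11 windows of 0.5 Mb, 127 of 151 AA-labelled peaks (84.1%) and 131 of 299 no-AA-labelled peaks (43.8%) did so, and the ratio of peak numbers was 0.505. The high AA-labelled sharing thus ended before the outer edge of the block, a boundary seen in the data and not used to choose members. For peak numbers the last window is not clearly different, since its ratio of 0.842 has an interval (0.405 to 1.73) that includes 0.505. At the edges, the first AA-labelled peak inside was 3015050 to 3015989 with 51 tags (18.01-fold over its local background, a value of the authors' caller), and the last was 8996355 to 8997367 with 26 tags (5.46-fold). The first and last no-AA-labelled peaks inside were 3002216 to 3002801 with 19 tags (7.48-fold) and 8978497 to 8979668 with 45 tags (5.15-fold). The nearest peaks outside were a shared pair at 9037993 to 9039339 with 39 AA-labelled tags and at 9037770 to 9039005 with 42 no-AA-labelled tags. No peak of either list lay before the block.

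**Figure D1:**
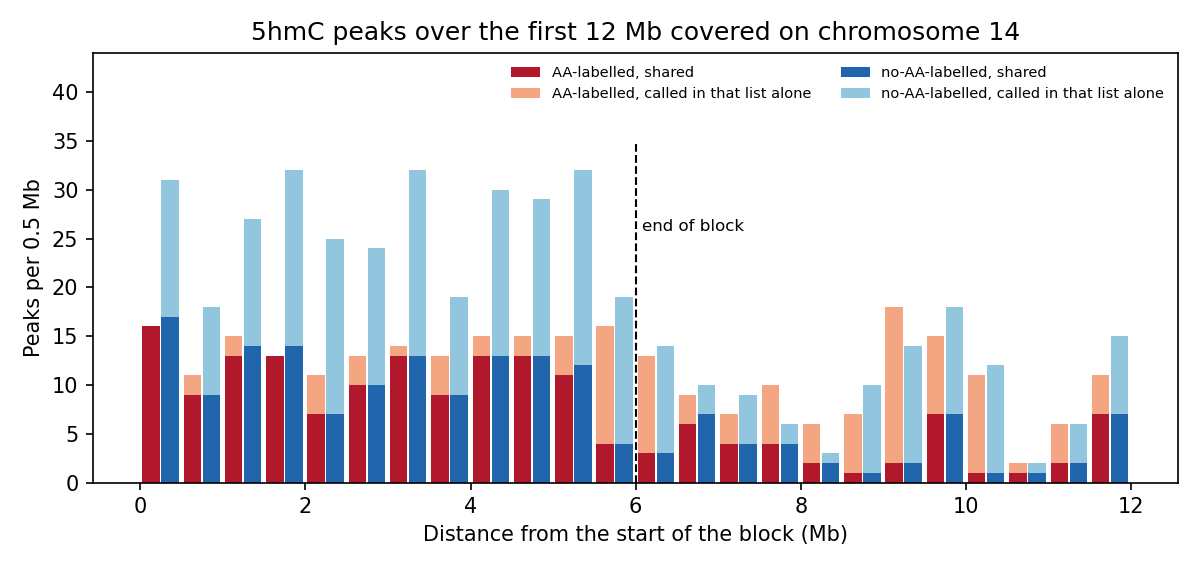
Peaks per 0.5 Mb over the first 12 Mb covered on chromosome 14, by distance from the start of the block; red bars are AA-labelled and blue bars no-AA-labelled peaks, dark parts overlap a peak of the other list and pale parts do not. Within the first 11 windows the AA-labelled bars hold 11 to 16 peaks and the no-AA-labelled bars 18 to 32, with nearly equal dark parts.

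The block was set beside 418 other stretches of 6 Mb, laid end to end from 3 Mb on along the autosomes and chromosome X. Its 318 no-AA-labelled peaks were equalled in 1 of them, on chromosome 8 from 69 to 75 Mb, and exceeded in 0. That stretch held 221 AA-labelled peaks, against 167 in the block. In AA-labelled peaks 113 of the other stretches held more than the block, and the median was 135.5. In all 418 the AA-labelled number over the no-AA-labelled one was above the block's 0.525, from 0.586 to 1.35 with a median of 0.906. The stretch nearest to it was on chromosome 8 from 51 to 57 Mb, with 51 and 87 peaks. These stretches are parts of the same 2 libraries and not replicates. The block was proposed because windows in it had shown fewer AA peaks, so its rank in this ratio of peak numbers is a description only.

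**Figure D2:**
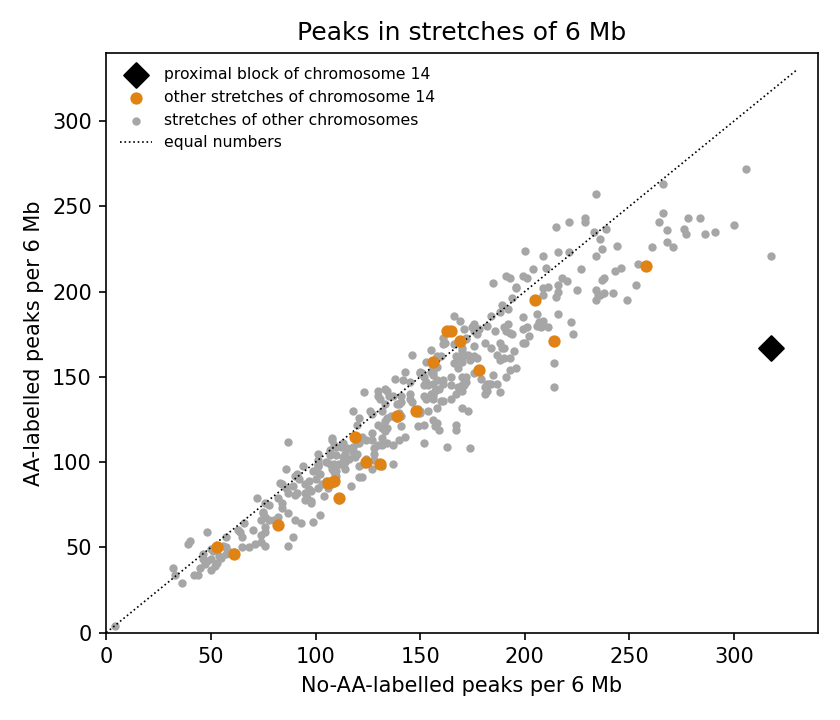
AA-labelled peaks (vertical axis) against no-AA-labelled peaks (horizontal axis) in stretches of 6 Mb; the diamond is the block, orange points are the rest of chromosome 14, grey points the other chromosomes, and the dotted line marks equal numbers. The diamond, at 167 and 318 peaks, lies below the cloud of the other stretches.

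The sharing followed tag number differently in each list. All 31 AA-labelled peaks of the block with 50 or more tags were shared, against 239 of 364 after the block (65.7%). Of AA-labelled peaks with under 20 tags, 24 of 41 were shared (58.5%), against 37.5% after the block. Of no-AA-labelled peaks with 50 or more tags, 57 of 73 were shared (78.1%), against 70.8% after the block. Of those with under 20 tags, 8 of 74 were shared (10.8%, 4.78% to 20.2%), against 184 of 766 after the block (24.0%, 21.0% to 27.2%). No-AA-labelled peaks without a counterpart had a median of 22 tags, which is also their median after the block.

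Tags per peak in the block differed from the rest of chromosome 14 in one class. The median shared no-AA-labelled peak held 43 tags in the block (37 to 51), against 31 after it (30 to 32). The median shared AA-labelled peak held 30 in the block (25 to 34), against 29 after it (28 to 30). Taken over all peaks, the medians were 27 tags in the block against 25 after it for the AA-labelled list, and 28 against 26 for the no-AA-labelled list. The largest counts in the block were 236 tags for the AA-labelled and 285 for the no-AA-labelled list. The authors' fold enrichment had a median of 9.36 in the block (8.91 to 9.90), against 8.11 after it, in the AA-labelled list. In the no-AA-labelled list it was 8.75 (8.00 to 9.01), against 7.23 after the block. Tags per kb of the whole peak divided by fold had a median no higher in the block than after it. This quotient is not the caller's own background, which the lists do not give. The quotient was 2.81 tags per kb in the block (2.58 to 3.15), against 3.14 after it (3.05 to 3.20), in the AA-labelled list. In the no-AA-labelled list the quotient was 4.48 tags per kb (4.20 to 4.90), against 4.64 (4.56 to 4.73).

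**Figure D3:**
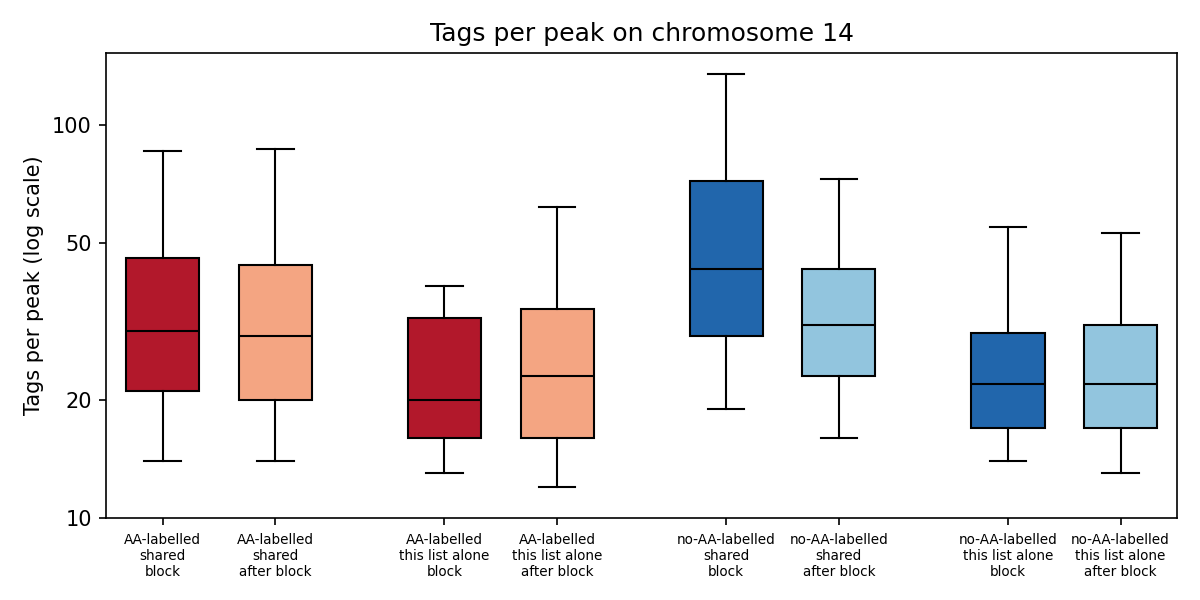
Tags per peak on chromosome 14 (log scale), in the block and after it, for shared peaks and for peaks called in that list alone; boxes span the quartiles, lines mark medians and whiskers the 5th and 95th percentiles. Shared no-AA-labelled peaks stand higher in the block (median 43 tags) than after it (31 tags), and the other 3 pairs of boxes have medians within 3 tags of each other.

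Where both lists had a peak, the AA-labelled library stood lower against the no-AA-labelled one in the block than after it. Tag density was taken as tags per kb of peak per 1000000 tags kept. Over the 127 pairs of the block that overlapped one to one, the median density was 2.28 in the AA-labelled and 2.43 in the no-AA-labelled library, against 2.28 and 1.96 over 1158 pairs after the block. The median log2 ratio, AA-labelled over no-AA-labelled, was -0.088 in the block (-0.19 to 0.00 over pairs), against 0.21 after it (0.19 to 0.24). Of the pairs in the block 41.7% were higher in the AA-labelled library, against 73.1% after it. A ratio past 2-fold was reached by 0 pairs in the block in either direction, while 1.47% of all pairs in the whole lists were that much higher with the AA label and 0.0223% that much lower. Scaling moves the block and the rest alike, so the gap of the medians, -0.30, is the same under each scaling. In tags per peak the gap was -0.45, and in fold enrichment -0.16. The sign of the block's own median is not settled, since tags per peak, scaled to kept tags, gave 0.071 and fold enrichment 0.071.

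From the lower to the upper quartile the log2 density ratio of the pairs ran from -0.29 to 0.13 in the block, against -0.02 to 0.45 after it. In scaled tags per peak the quartiles were -0.24 and 0.38 in the block, against 0.13 and 0.94 after it. Among the 97 pairs with 30 tags or more in at least 1 library, the highest log2 ratio was at 6042994 to 6043902, with 63 tags (AA-labelled) and 93 tags (no-AA-labelled) and a ratio of 0.97 (0.48 to 1.45). The AA-labelled peak there was 909 bp long and the no-AA-labelled one 1700 bp, and in tags per peak the log2 ratio was 0.066. Next were 8881644 to 8882420 at 0.70 and 7115148 to 7116122 at 0.64, both with intervals that include 0. The lowest ratio was at 7815029 to 7816025, with 33 tags (AA-labelled) and 68 tags (no-AA-labelled) and a ratio of -0.93 (-1.57 to -0.31). It was followed by 4258824 to 4261157 at -0.81, with 53 and 121 tags, and by 4675033 to 4675726 at -0.72, with 13 and 46 tags and an interval (-1.73 to 0.19) that includes 0. Shared pairs with the highest mean of both folds began, in the AA-labelled list, at 7197367 (16.64-fold and 20.20-fold), 7436012 (17.61 and 18.90), 5019583 (18.20 and 17.32), 3973390 (14.83 and 20.20), 6496160 (19.80 and 12.76) and 6042994 (17.78 and 13.86). The 6 pairs thus came from 4 of the 1-Mb windows. The pair with the most no-AA-labelled tags, named after its values were seen, was at 5968967 to 5971851, with 195 tags (AA-labelled) and 285 tags (no-AA-labelled) and a log2 density ratio of 0.15 (-0.12 to 0.42).

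The spacing of peaks was short in the no-AA-labelled list and ordinary in the other. Neighbouring AA-labelled midpoints were a median of 26.4 kb apart in the block (22.0 to 34.3), against 26.7 kb after it (25.0 to 28.1). Neighbouring no-AA-labelled midpoints were 13.9 kb apart in the block (11.4 to 16.1), against 23.8 kb after it (22.7 to 25.4). Shared no-AA-labelled peaks alone were 33.5 kb apart in the block, against 58.9 kb after it. Long empty stretches were rare in the block: spacings over 100 kb made up 8 of 166 (4.82%) in the AA-labelled list and 0 of 317 in the no-AA-labelled list, against 270 of 2452 and 242 of 2747 after the block. The longest was 150.5 kb in the AA-labelled and 92.3 kb in the no-AA-labelled list.

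**Figure D4:**
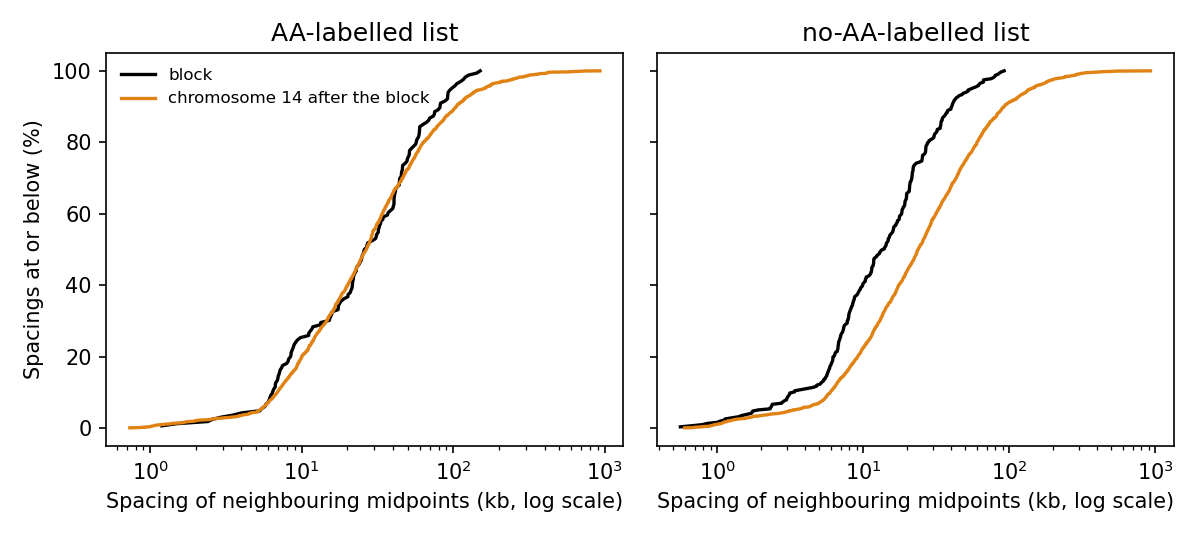
Cumulative share of spacings between neighbouring peak midpoints (log scale, kb) in the AA-labelled list (left) and the no-AA-labelled list (right); black is the block, orange is chromosome 14 after it. The curves lie close together for the AA-labelled list (medians 26.4 and 26.7 kb), while the block lies to the left for the no-AA-labelled list (13.9 and 23.8 kb).

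No-AA-labelled peaks without a counterpart were spread between the shared ones. Their median distance to the nearest shared peak was 17.7 kb (14.8 to 21.5), against 28.7 kb after the block (26.5 to 30.5). Shared peaks were themselves closer together in the block, at the 33.5 kb against 58.9 kb given above, and a shorter distance follows from that. Within 2 kb of a shared peak lay 3 of the 183 (1.64%), against 39 of 1546 after the block (2.52%). A shared peak within 20 kb on both sides was found for 18 (9.84%), against 4.27% after the block, which the closer shared peaks also raise. They formed 78 groups of neighbours with a mean of 2.35 peaks and at most 9, and the mean after the block was 2.35 too. The strongest began at 3107744 (26 tags, 15.34-fold), 6724022 (26 tags, 15.15-fold), 4303875 (39 tags, 15.02-fold), 5460871 (30 tags, 14.34-fold), 6837172 (21 tags, 14.23-fold) and 5683754 (26 tags, 13.93-fold). The strongest of the 36 called in the AA-labelled list alone began at 8560604 (32 tags, 13.18-fold), 6940960 (27 tags, 12.08-fold), 3705247 (18 tags, 11.88-fold), 5777301 (25 tags, 10.92-fold), 5350469 (11 tags, 10.89-fold) and 8595189 (13 tags, 10.89-fold). For such a peak the tags of the other library are not in the lists.

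No distance class stood out in the no-AA-labelled list. Distances between all midpoints from 20 to 1000 kb were counted in classes of 1 kb. In the no-AA-labelled list the fullest class, 553 to 554 kb, held 30 pairs, or 1.97 times the mean class of 15.2. The next classes began at 104, 21, 77 and 113 kb, with 28, 27, 27 and 27 pairs. In 19 other stretches of the genome with at least 250 no-AA-labelled peaks, the same measure ran from 1.83 to 2.40, and 13 of them exceeded the block. In the AA-labelled list the fullest classes began at 26 and 227 kb with 11 pairs each, then at 46, 120 and 266 kb with 10 each, 2.67 and 2.43 times the mean of 4.11. There the block's 2.67 was above all of the 19 peak-rich stretches, which ran from 1.97 to 2.58 and held more AA-labelled peaks (204 to 272), while 318 of all 418 other stretches were above it. Of the no-AA-labelled peaks without a counterpart, 19 of 183 lay at 553 to 554 kb from a shared peak, and of the shared ones 2 of 135. After the block it was 41 of 1546 (2.65%) and 32 of 1202 (2.66%). That distance was chosen for its number of pairs, so these counts only describe it.

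Matching arrangements were found over several successive peaks. A run was counted where 2 or more successive spacings recurred elsewhere in the stretch within 200 bp each. The AA-labelled list had 1 run in the block, and the no-AA-labelled list 11. Per 10000 pairs of places the no-AA-labelled value was 2.20, against 0.282 to 3.51 with a median of 1.43 in the 19 other peak-rich stretches. Of these 19, 1 was above the block, and of all 418 other stretches 20 were. The AA-labelled value was 0.730, and 11 of the 19 and 107 of the 418 were above it. The longest run in the block had 4 no-AA-labelled peaks. Its first occurrence had the peaks at 3485539 to 3486482 (37 tags), 3492577 to 3493241 (21 tags), 3519306 to 3519995 (22 tags) and 3544818 to 3545427 (24 tags). The second occurrence, 2919 kb further on, had 6404454 to 6405481 (46 tags), 6411317 to 6412075 (25 tags), 6438162 to 6438929 (28 tags) and 6463699 to 6464343 (29 tags). The spacings were 6.90, 26.7 and 25.5 kb in the first and 6.73, 26.8 and 25.5 kb in the second. The first 3 peaks had a further match that began at 3724998, with 40, 25 and 23 tags at spacings of 6.76 and 26.8 kb. These are matches in spacing, and whether they are copies in sequence was not tested. All 3 opening peaks were shared with the AA-labelled list, at 16, 13 and 36 tags in order of position.

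A longer match joined a pair of segments that the no-AA-labelled peaks fill at the same offsets. The search, added after the run at a distance of 1185 kb had been seen, took the most peak pairs at 1 distance, within 400 bp, in any span of 400 kb. In the no-AA-labelled list it found 13 pairs in the block, at distances of 1185.0 to 1185.3 kb over a span of 361 kb. Of the 418 other stretches, 1 reached 13 or more, on chromosome 4 from 141 Mb with 15 pairs. Elsewhere on chromosome 14 the number was 2 to 6, and in the 19 other peak-rich stretches 6 to 15 with a median of 6. In the AA-labelled list the block had 6 pairs, at 1184.96 to 1185.34 kb, and 5 AA-labelled pairs lay within the distances of the no-AA-labelled ones. The number 6 was reached by 59 other stretches, among them 16 of the 19 peak-rich ones.

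The first segment ran from the no-AA-labelled peak at 5178037 to the one at 5538673, and the second from 6363292 to 6724022. Each held 20 no-AA-labelled peaks, 13 of them matched. The search used positions only. How reads that align to several places were treated is not given, so the tags of the matched peaks are a description only. The peak with most tags had 132 in the first segment (5510309 to 5512310) and 143 in the second (6695560 to 6697357). The next highest had 81 and 62 tags at 5332504 and 6517605, 65 and 67 at 5488476 and 6673584, 46 and 46 at 5219506 and 6404454, and 45 and 43 at 5486009 and 6671049. The weakest matched peaks had 22 and 16 tags, at 5178037 and 6363292. The median size of the log2 ratio between matched peaks was 0.21 and the largest 0.61. Across the 13 pairs the tags had a Pearson correlation of 0.971, given as a description since the pairs share a library and the peak of 132 and 143 tags weighs most. The 6 AA-labelled pairs had 85 and 84 tags at 5510112 and 6695502, 39 and 39 at 5332482 and 6517541, 24 and 38 at 5444939 and 6630112, 24 and 23 at 5517063 and 6702116, 22 and 29 at 5311198 and 6496160, and 22 and 36 at 5219352 and 6404447. The AA-labelled list held 8 peaks in the first and 9 in the second segment.

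The standing of matched peaks in the other list was the same in some pairs and not in others. Of the 13 no-AA-labelled pairs, 4 were shared with the AA-labelled list in both segments, 6 in neither and 3 in one. Of all 20 no-AA-labelled peaks, 5 were shared in the first segment and 8 in the second. The number of like pairs to be met without any match was not worked out. Among the 6 without a counterpart in either segment was the pair of 65 and 67 tags. Of the 9 inverted no-AA-labelled pairs given below, 3 were shared in both places, 3 in neither and 3 in one. Repeated places thus held no-AA-labelled peaks with and without a counterpart. The part of read placement in these matches was not tested.

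**Figure D5:**
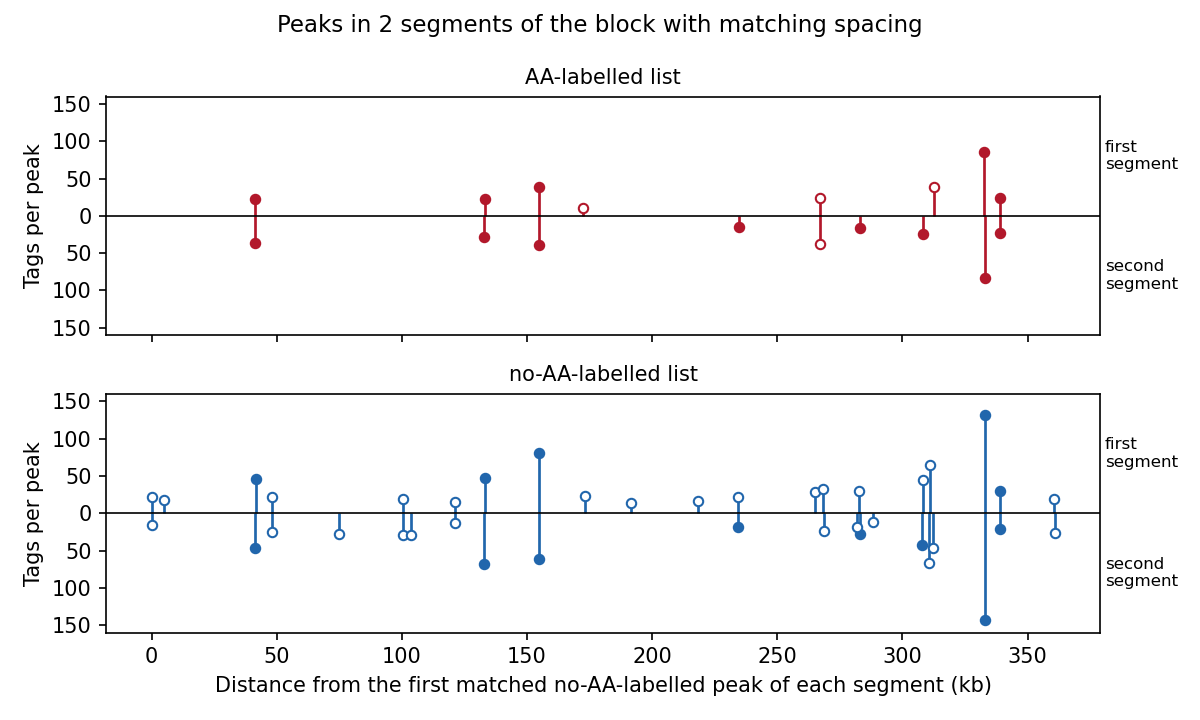
Tags per peak (vertical axis) by distance from the first matched no-AA-labelled peak (horizontal axis, kb) in the first segment (upward) and the second segment (downward), for the AA-labelled list (top) and the no-AA-labelled list (bottom); filled circles are peaks shared between the lists, open circles are not. The 13 matched of 20 no-AA-labelled peaks in each segment have a bar of like height on the other side, at 132 and 143 tags for the highest. The other no-AA-labelled bars fell outside the distances of the match (1185.0 to 1185.3 kb). Some of them still lie near a bar of the other segment, such as 47 tags at 133.2 kb and 68 at 132.9 kb. The highest AA-labelled pair has 85 and 84 tags.

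An inverted match joined another place of the block to one that overlapped the second segment. Pairing peaks in mirrored positions gave the no-AA-labelled list 9 pairs in the block, between 5636839 to 5810629 and 6597704 to 6771515. Of the 418 other stretches 0 reached 9, and the 19 peak-rich ones had 5 to 8 with a median of 6. The peak with most tags in the first of these places had 132 tags (5711161 to 5712676), paired again with the one of 143 tags at 6695560. The next had 55 tags at 5733680, paired with 67 at 6673584. Less alike were 28 tags at 5636839 with 16 at 6770935, and 22 at 5663898 with 39 at 6743518. Over the 9 pairs the median size of the log2 ratio was 0.28 and the largest 0.83. The AA-labelled list had 5 inverted pairs in the block, a number that 157 other stretches reached, among them all 19 peak-rich ones. The AA-labelled pairs were led by 80 tags at 5711110 and 84 at 6695502. In the no-AA-labelled list, the peaks around 5510309 thus had matching positions in 3 places of the block, once in mirrored order. The highest peak there had 132, 132 and 143 no-AA-labelled tags and 85, 80 and 84 AA-labelled tags. These are matches of position, and the AA-labelled inverted number was common among other stretches. Whether the 3 places are copies in sequence was not tested.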

How the data were processed

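One library a group was sequenced. Per the submitters' processing notes, the authors used BWA 0.5.9-r16, mm9 and MACS 1.4.2. Per the file headers, each list was called on 1 library with no control, at a p cutoff of 1e-05 and a regional background over 10000 bp, and tags of 101 bp were kept once per position, which left 11907082 of 15767993 tags (AA-labelled) and 18398162 of 27083528 (no-AA-labelled). The deposited tag counts are whole numbers, not scaled to library size. The deposited score is 10 times the −log10 of the caller's p, 50 at the cutoff. The deposited fold enrichment is a ratio to each library's own background.

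From these lists, members were taken by midpoint. A peak with 1 bp or more in common with any peak of the other list was called shared. Intervals are 95% exact Poisson, Clopper-Pearson (for a ratio of counts, conditional on their sum) or order-statistic intervals. PCR reads carry no molecular identifiers, so intervals cover counting error only. Named regions were both edges, every 1 Mb window, the 6 unshared peaks of highest fold in each list, the 6 shared pairs of highest mean fold, the 3 pairs at either end of the density ratio with 30 or more tags in 1 library, the 5 fullest lag classes and the longest run. The segments, the further match of the run and the pairs of peaks in them were chosen after their values were seen. The members and lists were chosen with earlier results of these data known. The code was tested on simulated data. Promoters came from RefSeq (GRCm38.p6). Alternatives were stricter cutoffs, other edges, overlap rules, lag classes, tolerances, tag measures and scalings. Calculations used Python 3.11.15, pandas 2.3.3, NumPy 2.4.6 and SciPy 1.17.1.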

Additional observations from a re-analysis of the deposited data

How the results depend on the processing

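Of 72 alternatives for 12 values, 45 stayed within the interval of the main value or within 1.5 times a count, and for the others the cause was not tested unless named. An edge at 8.5 Mb and the settings of the segment search were added after seeing the data. Taking the headers' names instead turned the log2 ratio of peak numbers, -0.93, into 0.93, and that of tag density in pairs, -0.088, into 0.088. A p of at most 1e-10 gave, for the no-AA-labelled list, 49.1% shared, a spacing of 40.6 kb, a fullest lag class 4.07 times the mean, 48 tags per peak, a distance of 41.3 kb from an unshared to a shared peak and 4 pairs in the segment search. For the AA-labelled list it gave a spacing of 81.1 kb and 41 tags per peak. The density ratio became 0.012 at that p, where the rest of chromosome 14 had 0.43. A fold enrichment of at least 10 gave a log2 ratio of peak numbers of -0.51 (66 and 94 peaks). The rest of chromosome 14 had 0.95. That cutoff left 59.1% of AA-labelled peaks of the block shared, against 20.7% in the rest of chromosome 14. In the block it also gave spacings of 68.6 kb (AA-labelled) and 41.5 kb (no-AA-labelled), 30.5 tags per no-AA-labelled peak and a distance of 45.9 kb. Fewer peaks lengthen spacings by construction. Ending the block at 8 Mb put the AA-labelled shared percentage at 85.3. The density ratio became 0.071 in tags per peak, 0.071 in fold enrichment, -0.72 without scaling and -0.62 with scaling to tags inside peaks. The 11 runs of spacings became 7 from 4 Mb on, 3 within 100 bp, 38 within 400 bp and 1 with 3 or more spacings. The 13 segment pairs became 8 in a span of 200 kb. No paired analysis was possible because there was only 1 library on either side, and leaving one out was likewise not possible. Depth limits what a missing AA-labelled peak means: a region not called is not one without 5hmC.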

Other observations

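The stretch of chromosome 4 from 141 to 147 Mb, chosen after its values were seen, was another place with many matching arrangements. It held 243 peaks of the AA-labelled and 284 of the no-AA-labelled list (ratio 0.856), of which 63.8% and 56.3% were shared. Its longest run had 5 successive spacings in the no-AA-labelled list, and it had 7 runs in the AA-labelled and 14 in the no-AA-labelled list. The block of chromosome 14 had 1 and 11 runs.

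A second set of 3 runs in the block matched in spacing, with tags alike at some places and not at others. Its no-AA-labelled peaks began at 5951518, 6106970 and 7820953, with spacings of 11.4, 11.4 and 11.4 kb to the next peak. The first peaks had 19, 20 and 51 tags, the next 13, 150 and 108, and the last 285, 34 and 28.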
